A study of Mus musculus with 7 samples.

Results

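The Ikaros family consists of 5 zinc finger transcription factors encoded by Ikzf1 (Ikaros), Ikzf2 (Helios), Ikzf3 (Aiolos), Ikzf4 (Eos), and Ikzf5 (Pegasus). All 5 genes, taken by their symbols, were among the 55367 genes in the deposited counts and among the 12623 genes tested, which averaged 5 or more counts over the libraries. They were measured in CD8+ T cells sorted from the spleens of Foxp3 YFP/cre mice, a strain in which the Foxp3 locus drives a yellow fluorescent Cre protein, and both groups carried this allele. The cells were exposed for 48 h to small extracellular vesicles (sEVs), labelled 100 µg/ml, from either of 2 spleen microenvironments. LME-sEVs came from leukemic Eμ-TCL1 mice and gave 3 libraries. These mice carry a human TCL1 transgene, driven in B cells by an immunoglobulin promoter and enhancer, and develop a disease resembling chronic lymphocytic leukemia. HCME-sEVs came from healthy mice and gave 4 libraries. The study's methods describe CD8+ T-cell culture on anti-CD3 with anti-CD28 and IL2. They set the amount of vesicles by what each type of spleen contained, whereas the labels give the same dose for both groups, and this difference between the sources could not be settled. A figure legend of the study gives the group sizes the other way round, and the sample labels were followed. The labels give no age, and nothing in them says that libraries came from separate animals or cultures. The p-values therefore measure the spread between these libraries, which may be technical.

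As background, Ikaros family proteins bind DNA through N-terminal zinc fingers that recognize a GGGAA core, and form homo- and heterodimers through C-terminal zinc fingers. They recruit chromatin complexes, in particular the NuRD complex with its Mi-2β helicase and histone deacetylases, to activate or silence lymphoid genes. Ikaros and Aiolos are needed for lymphocyte development and restrain the response of T cells to antigen, Helios and Eos are best known from regulatory T cells, and Helios is also found in subsets of activated CD8+ T cells. Pegasus is the most divergent member and binds a different DNA sequence.

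The study named several miRNAs carried by LME-sEVs, so the members' RNAs were searched for matches to the seeds of those found in the RefSeq miRNA table (GRCm38.p6). The mature sequences are shown from 5′ to 3′ with the seed, bases 2 to 8, in capitals, because a transferred miRNA would pair with a target through these bases. The 5 miRNAs have different seeds. The study also named miR-150 and miR-378a, which were not searched here.
mmu-miR-155-5p: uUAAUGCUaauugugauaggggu
mmu-miR-146a-5p: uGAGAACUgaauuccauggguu
mmu-miR-21a-5p: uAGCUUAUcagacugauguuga
mmu-miR-27a-3p: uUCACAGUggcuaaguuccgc
mmu-miR-210-3p: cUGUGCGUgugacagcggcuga

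In the 3′ untranslated region of the longest coding transcript of each member (GENCODE vM21, GRCm38), only miR-146a-5p, miR-27a-3p, and miR-210-3p had a match. Ikzf2, with an untranslated region of 7554 bases, held 2 matches to miR-146a-5p and 1 to miR-27a-3p. Ikzf1 and Ikzf5 held 1 match each to miR-27a-3p, Ikzf1 held 1 to miR-210-3p, and Ikzf3 and Ikzf4 held none. The windows below show each match in capitals with the bases around it, on the strand of the transcript, since these are the stretches that the seeds above could pair with.
Ikzf2, chr1:69537226-69537255, minus strand, miR-146a-5p: tgatctttgtgAGTTCTCaattgttttttt
Ikzf2, chr1:69533610-69533639, minus strand, miR-146a-5p: tccacataagcAGTTCTCagtgaaccgggc
Ikzf2, chr1:69533373-69533402, minus strand, miR-27a-3p: caaattatggaACTGTGAtctaaaaacggt
Ikzf1, chr11:11772848-11772877, plus strand, miR-27a-3p: ctatggcactcACTGTGAataagtgtgacc
Ikzf1, chr11:11772409-11772438, plus strand, miR-210-3p: tcaccaagggcACGCACAgcctagcacctg
Ikzf5, chr7:131389154-131389183, minus strand, miR-27a-3p: tttttaaagaaACTGTGAagagattaacag

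Other tested genes with untranslated regions of like length held such matches too. Of the 212 tested genes whose untranslated region was within 20% of the length of that of Ikzf2, 51.9% held at least 1 match to miR-146a-5p. The share with at least 1 match to miR-27a-3p was also 51.9%. The share with 2 matches to miR-146a-5p, as in Ikzf2, was not counted. For Ikzf1 the share of genes of like length with a match to miR-27a-3p was 31.5%, and for Ikzf5 it was 27.5%. A match to miR-210-3p was rarer, at 6.59% of genes of like length to Ikzf1. A match is a description of the letters and not evidence of pairing. Ikzf2 held the most matches and also had the longest untranslated region, against 2084 to 3345 bases in the other members. Whether any of these miRNAs acted on a member was not tested.

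Ikzf2 RNA was about doubled after LME-sEVs, and it was the only member of the family that passed the test. The RNAs of Ikzf1, Ikzf3, Ikzf4, and Ikzf5 differed between the groups by less than the test could call. The gene for Helios lies on chr1:69531214-69687245 of GRCm38 on the minus strand (ENSMUSG00000025997.13), with 7 annotated coding transcripts that end at 5 different 3′ ends. The libraries hold only the 3′ ends of RNAs, so the values of Ikzf2 sum over these transcripts and do not separate full-length from shorter forms.

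After HCME-sEVs, Ikzf2 stood at 99.7, 148, 179, and 129 CPM (counts scaled to a common library size and normalized by TMM) in libraries 1 to 4. After LME-sEVs it stood at 274, 303, and 291 CPM. The groups did not overlap, and the lowest LME-sEV library lay well above the highest HCME-sEV library. The counts behind these levels were 414 to 671 in the HCME-sEV libraries and 1017 to 1501 in the LME-sEV libraries, so counting error was small beside the spread of the HCME-sEV libraries. The level was 139 ± 33.3 CPM after HCME-sEVs (SD, n = 4) and 289 ± 14.95 CPM after LME-sEVs (SD, n = 3). The HCME-sEV libraries were the more spread, with 1.79-fold between the highest and the lowest against 1.11-fold among the LME-sEV libraries. The log2 fold change of LME-sEVs over HCME-sEVs was 1.06 (SE 0.12, 95% interval 0.80 to 1.32), a fold of 2.09 with an interval of 1.75 to 2.49. The adjusted p of edgeR's quasi-likelihood test, corrected across the whole table by the Benjamini-Hochberg method, was 5.10e-05. The exact two-sided permutation test of the log2 levels gave p = 0.0286, the smallest possible for 4 libraries against 3. In bulk RNA, a larger share of cells with Ikzf2 and more Ikzf2 RNA per cell cannot be told apart.

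Among the 12623 tested genes, 8.96% passed an adjusted p of 0.05 in either direction and 3.75% were higher and 5.21% lower after LME-sEVs. Of the 5 members, 1 was called, in the higher direction. By the study's stricter rule, which also asks for a log2 fold change beyond 1, 1.28% of genes were called in either direction and 0.626% were higher, and Ikzf2 met this rule too. Ikzf2 held rank 8 by p-value among all tested genes and rank 5 among those with a positive fold change. By the size of its log2 fold change in the higher direction it held rank 144. Of the 973 tested genes within 1.5-fold of the mean level of Ikzf2, itself included, 1 had a log2 fold change at least as high, and that was Ikzf2. The groups did not overlap in 20.3% of all tested genes, 9.49% in the higher and 10.8% in the lower direction, and in 1 of the 5 members. The side of the cutoff of 1 depended on 1 library: without HCME-sEV library 1, the lowest of all 7, the log2 fold change of Ikzf2 was 0.93, with an edgeR adjusted p of 1.1e-06.

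**Figure D1:**
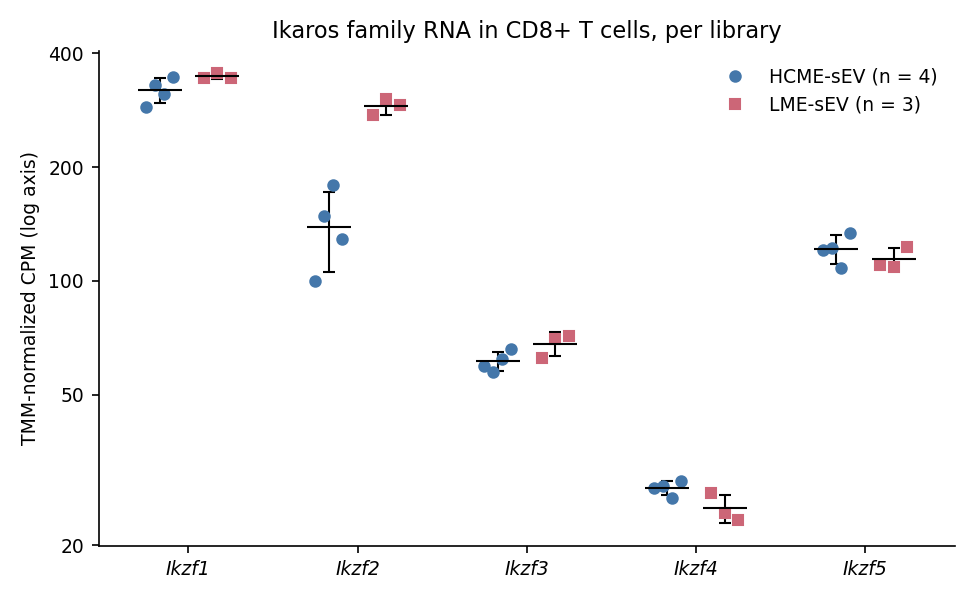
TMM-normalized CPM of the 5 Ikaros family genes on a log axis, with a circle for each HCME-sEV library (n = 4), a square for each LME-sEV library (n = 3), and black bars for the mean ± SD. The squares of Ikzf2 sit between 274 and 303 CPM, above its circles at 99.7 to 179 CPM, while circles and squares overlap for the other 4 genes.

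Ikzf1, the founding member, whose loss in mice blocks much of lymphocyte development, lies on chr11:11685003-11772926, plus strand. Its levels were 289, 329, 312, and 346 CPM after HCME-sEVs and 344, 354, and 344 CPM after LME-sEVs. The groups overlapped, because HCME-sEV library 4 lay above 2 of the 3 LME-sEV libraries. The log2 fold change was 0.12 (SE 0.077, 95% interval -0.04 to 0.28), with an adjusted p of 0.366 by edgeR. The exact permutation p was 0.143. The interval leaves room for a rise of up to 0.28 on the log2 scale and for almost no fall.

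Ikzf3 encodes Aiolos, the closest relative of Ikaros. In human cells, both proteins are substrates that the drug lenalidomide directs to the cereblon ubiquitin ligase. Mouse Ikzf3 lies on chr11:98464902-98546031, minus strand. It was measured at 59.5, 57.5, 62.1, and 65.9 CPM after HCME-sEVs and at 62.4, 70.3, and 71.5 CPM after LME-sEVs. LME-sEV library 1 fell within the range of the HCME-sEV libraries and the other two LME-sEV libraries lay above it. The log2 fold change was 0.16 (SE 0.094, 95% interval -0.04 to 0.35; edgeR adjusted p = 0.348, exact permutation p = 0.114).

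Ikzf4 encodes Eos, a partner of Foxp3 in gene silencing in regulatory T cells, and lies on chr10:128630843-128645991, minus strand. It was the least abundant member. Its levels were 28.4, 28.6, 26.7, and 29.6 CPM after HCME-sEVs and 27.4, 24.3, and 23.3 CPM after LME-sEVs. The groups overlapped only through LME-sEV library 1, which exceeded the lowest HCME-sEV library. The log2 fold change was -0.19 (SE 0.12, 95% interval -0.44 to 0.06; edgeR adjusted p = 0.380, exact permutation p = 0.0857).

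Ikzf5, for Pegasus, lies on chr7:131388652-131410521, minus strand. It was at 121, 122, 108, and 134 CPM after HCME-sEVs and at 110, 109, and 123 CPM after LME-sEVs. The lowest value of all 7 libraries was in the HCME-sEV group, and all 3 LME-sEV libraries lay within the range of that group. The log2 fold change was -0.08 (SE 0.089, 95% interval -0.27 to 0.10; edgeR adjusted p = 0.632, exact permutation p = 0.429). Ikzf5 is uncertain in part, because its exons overlap those of Pstk on the other strand and the counting's use of strand is not given in the sources used here. Pstk itself was low, at 44 to 77 counts per library, with a log2 fold change of 0.04. The exons of Ikzf2 and Ikzf4 overlap those of the noncoding genes Gm29114 and Gm26876 on the other strand, and these had at most 2 counts in any library. No gene shared a near-identical 3′ end with any member.

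**Figure D2:**
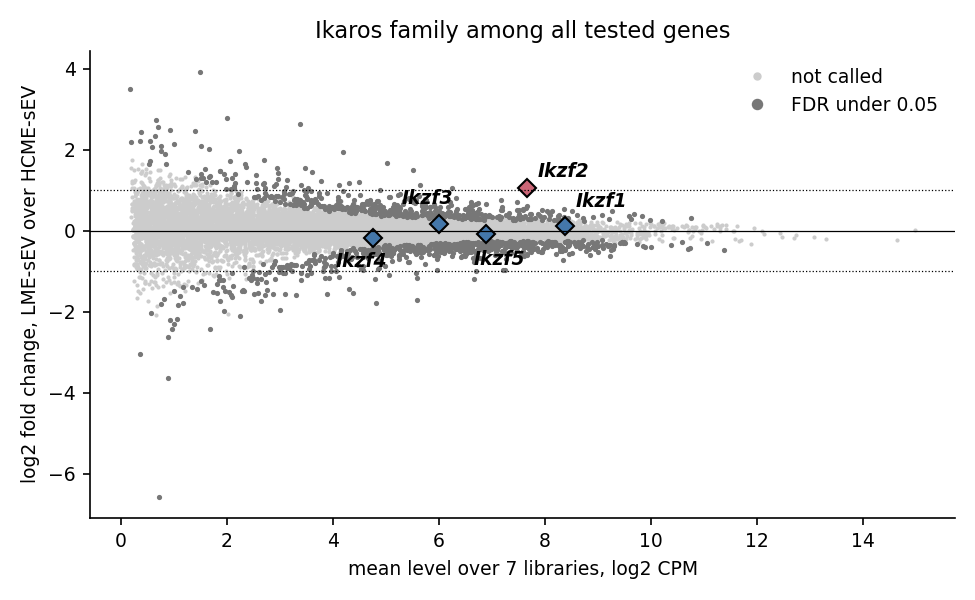
Log2 fold change of LME-sEVs over HCME-sEVs against mean level (log2 CPM over the 7 libraries) for all 12623 tested genes, light grey where not called and dark grey where the edgeR adjusted p was under 0.05. Diamonds mark the family, with Ikzf2 in red at 1.06, above the genes of like level, and the other 4 members in blue between -0.19 and 0.16; dotted lines mark a log2 fold change of 1 in each direction.

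The order of the levels, read as CPM of 3′ counts in which gene length does not enter, was the same in the 2 groups by the means, while the overlap between neighbours differed. After HCME-sEVs, Ikzf1 was the most abundant at 319 ± 24.2 CPM (SD, n = 4), followed by Ikzf2 and Ikzf5, whose ranges of 99.7 to 179 and 108 to 134 CPM overlapped. Ikzf3 at 61.3 ± 3.62 CPM and Ikzf4 at 28.3 ± 1.21 CPM came next, each apart from its neighbours. After LME-sEVs, the order was again Ikzf1 at 347 ± 5.83 CPM, Ikzf2, Ikzf5 at 114 ± 7.69 CPM, Ikzf3 at 68.1 ± 4.96 CPM, and Ikzf4 at 25.0 ± 2.18 CPM (SD, n = 3), and no neighbours overlapped. Ikzf2 and Ikzf5, side by side after HCME-sEVs, were thus separated after LME-sEVs. Among all tested genes, the mean level of Ikzf1 lay at the 96.3 percentile and that of Ikzf2 at the 92.5 percentile.

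The make-up of the family's RNA moved with Ikzf2. Its share of the summed counts of the 5 genes was 16.7%, 21.7%, 26.0%, and 18.3% in HCME-sEV libraries 1 to 4 and 33.5%, 35.2%, and 34.1% in the LME-sEV libraries. The exact binomial 95% interval of the highest HCME-sEV share was 24.3% to 27.8% and that of the lowest LME-sEV share 31.8% to 35.2%, which cover counting error only. The mean share was 20.7% ± 4.12 (SD, n = 4) after HCME-sEVs and 34.3% ± 0.892 (SD, n = 3) after LME-sEVs, 13.6 percentage points apart. Shares sum to a whole, so those of the others were lower: Ikzf1 went from 47.7% to 41.2%, Ikzf5 from 18.2% to 13.5%, Ikzf3 from 9.19% to 8.07%, and Ikzf4 from 4.25% to 2.97%. The summed level of the 5 genes was 668 ± 48.1 CPM after HCME-sEVs and 844 ± 23.2 CPM after LME-sEVs. Without Ikzf2 the sums were 529 ± 34.5 and 554 ± 9.47 CPM, so most of the difference in the family's summed RNA was in Ikzf2.

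**Figure D3:**
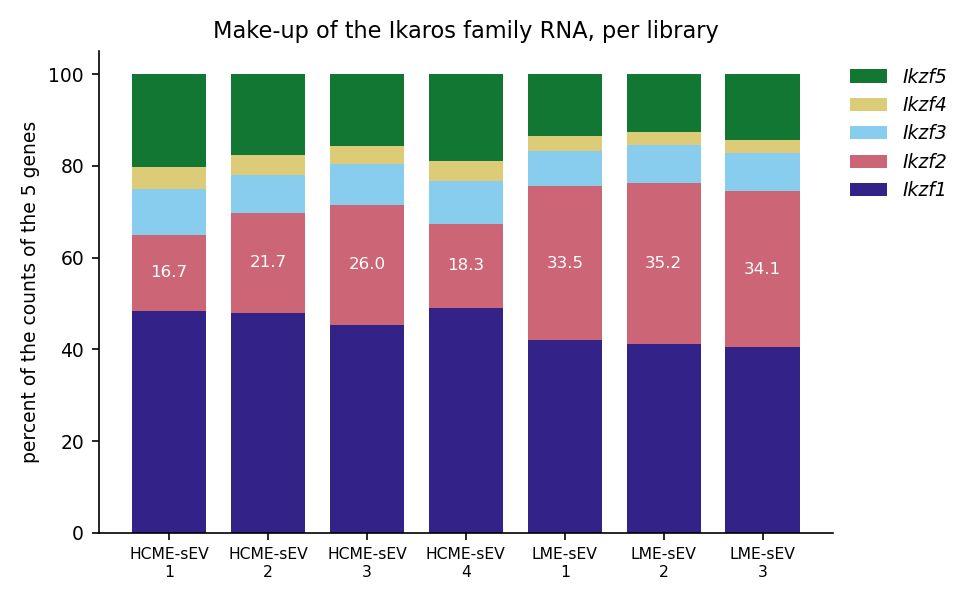
Percent of the summed counts of the 5 Ikaros family genes taken by each gene, 1 stacked bar per library, with the percentage of Ikzf2 printed in its segment. The Ikzf2 segment takes 16.7% to 26.0% in the 4 HCME-sEV libraries and 33.5% to 35.2% in the 3 LME-sEV libraries.

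Ratios of counts within a library do not depend on scaling between libraries. The ratio of Ikzf2 to Ikzf1, which encodes a dimerization partner, was 0.345 to 0.573 after HCME-sEVs and 0.796 to 0.857 after LME-sEVs. That of Ikzf2 to Ikzf3 was 1.68 to 2.88 and 4.07 to 4.38. That of Ikzf2 to Ikzf4 was 3.51 to 6.71 and 9.97 to 12.5, and that of Ikzf2 to Ikzf5 was 0.825 to 1.67 and 2.37 to 2.78. None of the 4 ratios overlapped between the groups, and all share Ikzf2 as the numerator. These ratios were chosen after the values of Ikzf2 were seen and are given as a description.

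The call on Ikzf2 did not rest on 1 way of processing. Over 15 alternatives, which changed the filter, the scaling, the test, or left out 1 library, the log2 fold change of Ikzf2 lay between 0.93 and 1.21 and it was called each time. None of the other 4 members was called or changed sign in any of them.

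**Figure D4:**
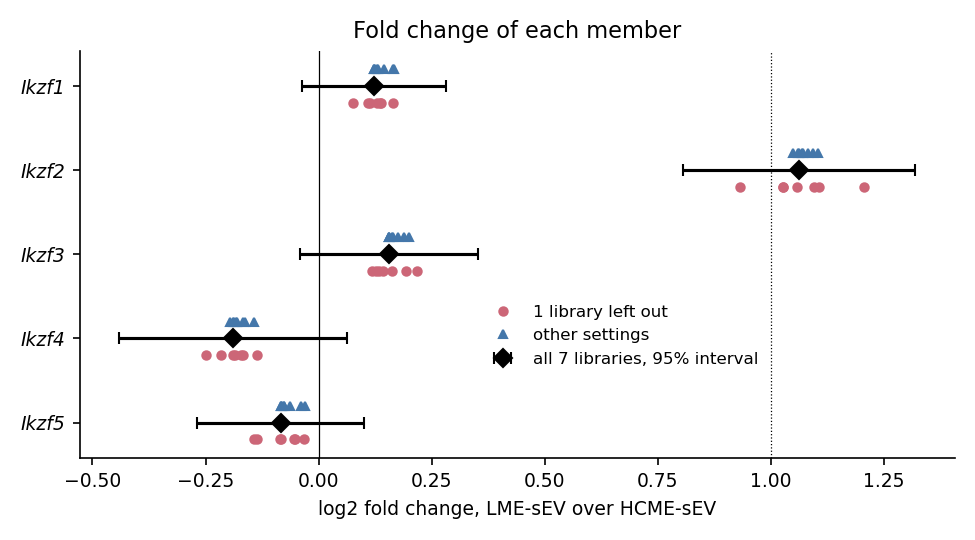
Log2 fold change of LME-sEVs over HCME-sEVs for each member, with a diamond and 95% interval for the fit to all 7 libraries, circles for fits that left out 1 library, and triangles for the other settings; the dotted line is the study's cutoff of 1. The interval of Ikzf2 runs from 0.80 to 1.32, and those of the other 4 members include 0.

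Because Helios is a marker of regulatory T cells, the sort was checked with marker genes. Foxp3, the defining factor of these cells, had at most 1 count in any library, Cd4 at most 3 counts, and Gpr83 at most 2. Foxp3 had 1, 0, 1, and 0 counts in HCME-sEV libraries 1 to 4 and 0 in each LME-sEV library. Cd4 had 0, 0, 0, and 2 counts in HCME-sEV libraries 1 to 4 and 0, 2, and 3 in LME-sEV libraries 1 to 3. At this depth a count of 0 allows up to 3 counts, or 0.582 to 0.807 CPM. The summed level of the 10 regulatory T-cell markers was 585 to 639 CPM after HCME-sEVs and 589 to 659 CPM after LME-sEVs, so the groups overlapped. Large parts of it were Tnfrsf18 (196 to 235 and 168 to 205 CPM) and Tnfrsf4 (160 to 200 and 140 to 174 CPM). Ctla4 added 103 to 143 and 152 to 206 CPM. The sum thus followed these genes and cannot show the level of the markers with few counts. Of the 7 tested markers in this list 2 were called, beside 8.96% of all tested genes, and 1 was called in 8 of the 15 alternatives, DESeq2 included. Ctla4, an inhibitory receptor that activated CD8+ T cells also express, was higher (log2 fold change 0.58, edgeR adjusted p = 0.00307), and Lrrc32, which anchors latent TGF-β, was lower (-0.73, edgeR adjusted p = 0.0439). Cd8a was measured at 341 to 376 CPM after HCME-sEVs and 401 to 435 CPM after LME-sEVs. The 10 T-cell markers summed to 4100 to 4240 and 4410 to 4880 CPM, without overlap. Of these 10, all tested, 2 were called by edgeR, Cd3e and Cd3g, both higher, beside 8.96% of all tested genes. The number called was 1 with DESeq2 and 0 to 2 with 1 library left out.

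Like those of T cells, the summed B-cell and myeloid markers did not overlap between the groups. Those of NK cells, basophils and mast cells, and erythroid cells and platelets did. The 14 B-cell markers summed to 263 to 309 CPM after HCME-sEVs and 356 to 377 CPM after LME-sEVs, with 2 of 8 tested called, Ighm and Cd74, both higher. Most of this sum was Ighm, at 220 to 263 CPM after HCME-sEVs and 299 to 325 CPM after LME-sEVs. Cd79a had at most 2 counts, Pax5 6, Cd79b 22, Ebf1 23, Bank1 25, Ighd 29, and Cr2 56. Of the 8 tested B-cell markers, 7 had a positive log2 fold change, beside 6496 of all 12623 tested genes. The count was 8 of 10 for T-cell, 6 of 7 for erythroid and platelet, and 5 of 7 for basophil and mast-cell markers. It was 4 of 7 for regulatory T-cell, 2 of 4 for NK-cell, and 2 of 2 for myeloid markers. The 10 myeloid markers summed to 4.19 to 6.99 and 9.50 to 13.2 CPM, with none of 2 tested called by edgeR or DESeq2 and 1 at an unadjusted p under 0.05. The 8 basophil and mast-cell markers summed to 13.3 to 43.6 and 37.6 to 51.5 CPM, with 3 of 7 called, Prg2, Prss34, and Mcpt8, all higher. The 9 erythroid and platelet markers summed to 74.7 to 182 and 158 to 205 CPM, with 3 of 7 called, Ppbp, Pf4, and Hba-a1, all higher. With DESeq2, 1 of the B-cell, 1 of the basophil and mast-cell, and 0 of the erythroid and platelet markers were called, and the last count was also 0 without HCME-sEV library 2, HCME-sEV library 4, or LME-sEV library 2. Over all tested genes 8.96% were called by edgeR and 22.7% had an unadjusted edgeR p under 0.05. An unadjusted p under 0.05 was found for 4 of 8 B-cell, 3 of 7 basophil and mast-cell, and 5 of 7 erythroid and platelet markers. The same held for 5 of 10 T-cell and 2 of 7 regulatory T-cell markers. The 8 NK-cell markers summed to 541 to 630 and 518 to 630 CPM, with none of 4 called by edgeR or DESeq2, 1 at an unadjusted p under 0.05, and Ncr1 at most at 1 count. No marker in these lists was at 0 in every library. Within the HCME-sEV group, the libraries had the same order by Ikzf2 as by the sum of erythroid and platelet markers, which was 74.7, 111, 182, and 95.7 CPM in libraries 1 to 4. This order was noticed after the values were seen, and no other marker list followed it in full. The B-cell sums, at 263, 280, 309, and 281 CPM in libraries 1 to 4, missed it only between libraries 2 and 4. The part of these cells in the difference in Ikzf2 was not tested.

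The genes most like Ikzf2 across the 7 libraries were Rora, Tg, and Lysmd2. Likeness was the root mean square distance of log2 CPM after each gene was centred on its own mean, over 6562 genes with a mean of at least 20 CPM. The distance was 0.112 for Rora, which encodes the nuclear receptor RORα, 0.169 for Tg, the thyroglobulin gene, and 0.186 for Lysmd2. Rora was at 20.6 CPM after HCME-sEVs and 41.4 CPM after LME-sEVs, a log2 fold change of 1.01 with an edgeR adjusted p of 1.58e-04. Tg was at 33.2 and 71.6 CPM (log2 fold change 1.12, edgeR adjusted p = 2.20e-05), and Lysmd2 at 16.9 and 30.8 CPM (0.88, edgeR adjusted p = 0.00138). All 3 shared with Ikzf2 a difference between the groups of similar size.

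The profiles nearest to the other members were nearer, because those members and their neighbours varied little. For Ikzf1 they were Fbxw2, Iqgap1, and Tubb5 at distances of 0.026 to 0.035, and for Ikzf3 they were Itgal, Rac1, and Foxo3 at 0.028 to 0.0299. For Ikzf4 they were the replication genes Ccne1, Lig1, and Mcm3 at 0.0216 to 0.0313, and for Ikzf5 they included Trip12 and Tacc3 at 0.0328 and 0.0446. None of these genes was called.

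The genes next to the members on the chromosome were also read. The nearest tested genes to Ikzf2 lay far off, Lancl1 at 2492.3 kb and Bard1 at 1340.3 kb, with log2 fold changes of 0.38 (edgeR adjusted p = 0.0479) and 0.09 (edgeR adjusted p = 0.652). Next to Ikzf3, Grb7, an adaptor of receptor tyrosine kinases, was higher at 0.74 and 2.45 CPM (log2 fold change 1.72, edgeR adjusted p = 0.0305), at levels of a few counts per library. None of the tested neighbours of Ikzf1, Ikzf4, and Ikzf5 was called.

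No gene of the complexes that Ikaros proteins bring to DNA was called by edgeR without a replicate block. Of the 15 genes of the NuRD complex 14 were tested and none was called by edgeR or DESeq2, with 5 at an unadjusted p under 0.05, as were 22.7% of all tested genes, and a median log2 fold change of -0.02 beside 0.0095 over all tested genes. With a replicate block edgeR called 2 of the 14. Chd4, for the Mi-2β helicase, was at 552 ± 13.7 CPM after HCME-sEVs and 493 ± 22.8 CPM after LME-sEVs, with a log2 fold change of -0.16 (edgeR adjusted p = 0.169). The NuRD subunits Mta1 and Gatad2b had positive values of 0.24 and 0.19 and Mbd3 a negative value of -0.29 (edgeR adjusted p = 0.103, 0.136, and 0.107). Of the SIN3 and CtBP corepressor genes, none of 9 tested was called by edgeR or DESeq2 and none had an unadjusted p under 0.05, with a median of -0.06. Of the 11 genes of the SWI/SNF chromatin remodelling complex none was called by either tool, 1 had an unadjusted p under 0.05, Arid1b at 0.21, and the median was -0.02. Crbn, for cereblon, was at 44.6 ± 3.11 and 45.5 ± 3.16 CPM (log2 fold change 0.03, edgeR adjusted p = 0.918). None of the 6 genes of its ubiquitin ligase was called by edgeR or DESeq2, with 1 at an unadjusted p under 0.05, Cul4b at -0.29, and a median of -0.06.

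**Figure D5:**
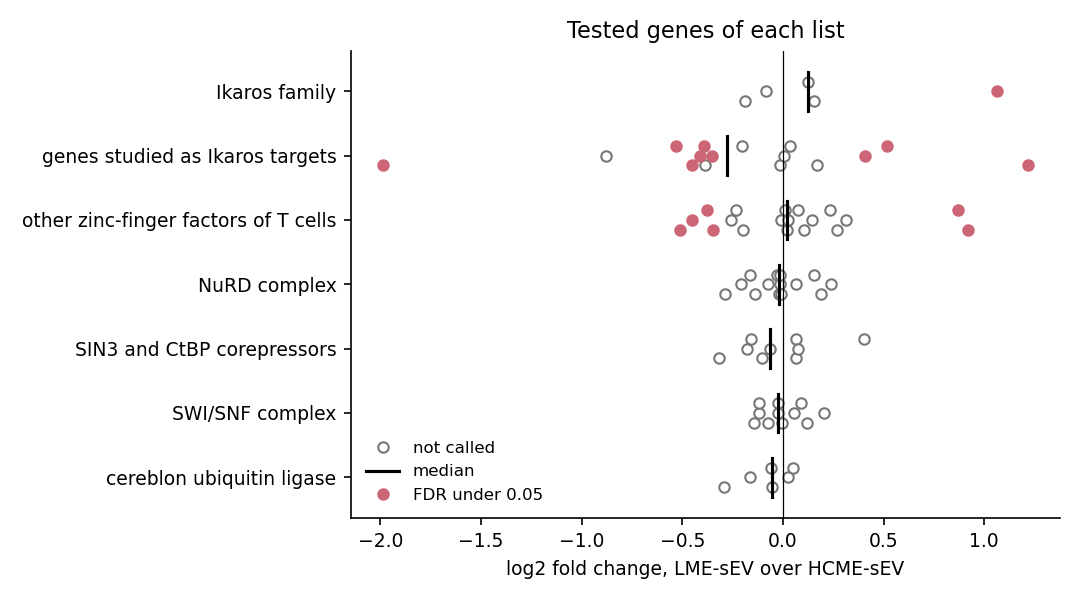
Log2 fold change of LME-sEVs over HCME-sEVs for the tested genes of each list, 1 circle per gene, filled where the edgeR adjusted p was under 0.05, with a vertical bar at the list's median. Filled circles occur in the family (Ikzf2 at 1.06), among the genes studied as Ikaros targets (9 of 16), and among other zinc finger factors (6 of 19).

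Genes that have been studied as targets of Ikaros family proteins changed in both directions. Of 24 such genes 16 were tested and 9 were called, 3 higher and 6 lower, beside 8.96% of all tested genes called, 3.75% higher and 5.21% lower. The median log2 fold change of the list was -0.28, and 5 genes were called without LME-sEV library 2. This list was drawn up with results of these data known, and its count is no independent evidence of a direction. Bcl6, a zinc finger repressor of effector genes, was at 5.78, 11.9, 9.87, and 7.45 CPM after HCME-sEVs and at 18.3, 22.5, and 19.8 CPM after LME-sEVs. The groups did not overlap, and the log2 fold change was 1.22 (SE 0.19, edgeR adjusted p = 6.62e-04). Il7r, the IL7 receptor chain of resting and memory cells, was at 188, 195, 250, and 197 CPM and at 298, 291, and 303 CPM, a log2 fold change of 0.52 (SE 0.089, edgeR adjusted p = 0.00125). Cdkn1b, an inhibitor of cell-cycle kinases, was also higher at 0.41 (edgeR adjusted p = 0.0132).

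The 6 lower genes of the list were Bcl2, Cdk6, Il2, Tbx21, Ifng, and Gzmb. The survival gene Bcl2 was at 321, 288, 242, and 287 CPM after HCME-sEVs and at 217, 177, and 198 CPM after LME-sEVs (log2 fold change -0.53, SE 0.094, edgeR adjusted p = 0.00153). The cell-cycle kinase Cdk6 was at 729, 667, 631, and 783 CPM and at 537, 490, and 514 CPM (-0.45, SE 0.081, edgeR adjusted p = 0.00167). For both genes every LME-sEV library lay below every HCME-sEV library. Il2, for the T-cell growth factor that Ikaros and Helios have been reported to repress, was at 4.66 to 6.84 CPM after HCME-sEVs and at 0.449 to 2.13 CPM after LME-sEVs (-1.98, edgeR adjusted p = 0.00302), at 2 to 27 counts per library. Tbx21, Ifng, and Gzmb, for T-bet, interferon-γ, and granzyme B, were lower by smaller amounts (-0.41, -0.39, and -0.35, with edgeR adjusted p = 0.01, 0.0288, and 0.0335). Among the 7 tested genes not called were Myc at -0.01, Notch1 at 0.04, and Bcl2l1, a survival gene related to Bcl2, at -0.39 (edgeR adjusted p = 0.0617).

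The promoters of the members and of these genes were looked up for the GGGAA core (or TTCCC on the other strand) in RefSeq windows of 250 bases before to 50 after the start (GRCm38.p6). Windows were found for 2 of the 5 members, Ikzf1 and Ikzf5. The core is frequent, and 62.7% of the 32851 windows of all genes held at least 1. The windows of Ikzf1, Ikzf5, Bcl6, and Il7r are shown with the core in capitals, from 5′ to 3′ on the strand of the gene, because Bcl6 and Il7r were the called targets with the smallest p-values in the higher direction. Where a gene has 2 windows, the one with more cores is given.
Ikzf1, chr11:11689927-11690226, plus strand: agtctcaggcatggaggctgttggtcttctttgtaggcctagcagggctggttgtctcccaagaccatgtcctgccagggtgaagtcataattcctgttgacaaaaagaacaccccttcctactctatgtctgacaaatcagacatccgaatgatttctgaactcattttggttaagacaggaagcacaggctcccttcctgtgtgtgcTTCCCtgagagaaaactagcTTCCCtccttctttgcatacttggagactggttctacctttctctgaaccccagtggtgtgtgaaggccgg
Ikzf5, chr7:131410429-131410728, minus strand: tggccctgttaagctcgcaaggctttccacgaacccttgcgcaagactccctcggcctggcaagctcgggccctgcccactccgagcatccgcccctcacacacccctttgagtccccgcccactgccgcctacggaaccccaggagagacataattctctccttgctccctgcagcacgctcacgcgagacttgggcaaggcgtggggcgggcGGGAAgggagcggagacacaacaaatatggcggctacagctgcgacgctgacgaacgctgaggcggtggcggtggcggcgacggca
Bcl6, chr16:23981234-23981533, minus strand: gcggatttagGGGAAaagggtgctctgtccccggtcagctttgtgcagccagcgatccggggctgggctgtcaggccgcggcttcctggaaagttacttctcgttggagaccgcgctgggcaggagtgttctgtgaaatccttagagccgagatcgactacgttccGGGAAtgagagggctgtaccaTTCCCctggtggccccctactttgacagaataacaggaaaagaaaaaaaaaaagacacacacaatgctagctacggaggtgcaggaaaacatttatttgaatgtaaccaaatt
Il7r, chr15:9529827-9530126, minus strand: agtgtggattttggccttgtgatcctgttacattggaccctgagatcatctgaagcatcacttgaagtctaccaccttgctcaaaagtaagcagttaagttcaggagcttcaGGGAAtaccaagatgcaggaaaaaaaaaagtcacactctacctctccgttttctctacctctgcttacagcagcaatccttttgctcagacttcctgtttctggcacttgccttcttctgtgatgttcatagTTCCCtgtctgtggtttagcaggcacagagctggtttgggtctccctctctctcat

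The Bcl6 window held 3 cores, the Ikzf1 and Il7r windows 2 each, and the Ikzf5 window 1. The other window of Ikzf1 held 0 and that of Bcl6 held 1. The window of Cdkn1b, the other target that was higher, held 0. Among the genes of the list that were lower, the windows of Il2, Bcl2, Cdk6, Ifng, and Gzmb held 0 and that of Tbx21 held 1. With the core in 62.7% of all windows, its presence or absence in these windows says nothing about binding.

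Other zinc finger factors of T cells were compared with the family. Of 21 genes 19 were tested and 6 were called, 2 higher and 4 lower, with a median log2 fold change of 0.02, beside 8.96% of all tested genes called. The count fell to 4 with DESeq2, to 3 without HCME-sEV library 2, and to 2 without any 1 of the 3 LME-sEV libraries. Prdm1, for Blimp-1, was at 7.47, 8.36, 10.9, and 12.1 CPM after HCME-sEVs and at 16.4, 17.3, and 21.1 CPM after LME-sEVs (log2 fold change 0.92, SE 0.18, edgeR adjusted p = 0.00340). Zbtb7b, for ThPOK, was at 5.30, 13.4, 8.27, and 5.82 CPM and at 14.8, 13.9, and 15.9 CPM (0.87, SE 0.24, edgeR adjusted p = 0.0241). Neither gene overlapped between the groups, which held for 8 of the 19 tested genes, beside 20.3% of all tested genes. Neither reached the study's cutoff of 1, but their 95% intervals, 0.54 to 1.30 and 0.38 to 1.36, include it. Bcl6, a zinc finger factor counted above among the targets, passed this cutoff at 1.22, as did Ikzf2. Zbtb32, Zbtb17, Egr3, and Egr1 were lower, with log2 fold changes of -0.45, -0.51, -0.35, and -0.38.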

How the data were processed

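Libraries were prepared with a 3′ mRNA kit (QuantSeq FWD) with UMIs. Per the labels and methods, the authors trimmed reads with cutadapt 2.10, mapped them to GRCm38 with STAR 2.5.3a, collapsed them with UMI-tools 1.0.0, and assigned them to genes with featureCounts (Subread 2.0.0). The deposited values are raw counts per gene symbol, 3689831 to 5030522 per library. The annotation release and strand setting are not given in the sources used here. Counting follows 3′ ends, so alternative polyadenylation can affect a level, and binomial intervals and floors cover counting error only.

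Groups were taken from the sample labels. LME-sEVs were compared with HCME-sEVs, without covariates, by the quasi-likelihood test of edgeR 4.0.16 (R 4.3.3) after TMM normalization, for genes averaging 5 or more counts over the libraries. The Benjamini-Hochberg adjustment covered 12623 genes, and log2 CPM used a prior count of 2. Standard errors are the log2 fold change divided by the root of F. Alternatives were other filters and scalings, DESeq2 1.42.0, limma-voom (limma 3.58.1), a replicate block, and leaving out each library. The members and gene lists were chosen with earlier results of these data known. Named were all members, Crbn, the 4 genes of each list with the smallest p-values, and the 3 nearest profiles per member. Some items of these are not reported here. Others (Il2, Tbx21, Ifng, Gzmb, Cdkn1b, Bcl2l1, Myc, Notch1, Zbtb17, Egr1, neighbours, overlapping genes) were named after their values were seen. So were the markers Foxp3, Cd4, Gpr83, Nrp1, Cd79a, Cd79b, Pax5, Ebf1, Cr2, and Ncr1. Sequences came from RefSeq (GRCm38.p6) and GENCODE vM21 (GRCm38).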

Additional observations from a re-analysis of the deposited data

Results flagged for a closer look

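In groups of 4 libraries, the gap between an extreme library and its nearest neighbour was compared with the range of the group. Over 67 groups looked at, 2 exceeded Dixon's 95% critical value, where chance gives 3.35. HCME-sEV library 3 held 250 CPM of Il7r, against 188 to 197 CPM in the other HCME-sEV libraries, a gap of 0.857 of the range. HCME-sEV library 3 was also the HCME-sEV library with the highest Ikzf2. HCME-sEV library 1 had 0 counts of Prg2, which was at 0.466 to 0.533 CPM, or 2 counts, in each of the others, a gap of 0.873 of the range that rests on these few counts. No member of the Ikaros family had such a library among the 4 HCME-sEV libraries, and groups of 3 were not looked at.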

How the results depend on the processing

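The number of called members was 1 under all 15 alternatives, and Ikzf2 kept a log2 fold change of 1.05 to 1.10 under the 8 other settings. By the study's rule, which asks for a log2 fold change beyond 1, Ikzf2 ranged from 0.931 to 1.205 when 1 library was left out and was below the cutoff only without HCME-sEV library 1. The difference in mean log2 CPM of Ikzf2 ranged from 0.9377 to 1.218 with 1 library left out, at exact permutation p of 0.0667 to 0.1, the smallest values that 6 libraries allow. Its share of the family's counts was 12.28 to 15.39 points higher.

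The count of called genes in the other lists was 27, 17 with DESeq2, and 10 to 27 with 1 library left out. It was 17, 10, and 15 without LME-sEV libraries 1, 2, and 3, and the genes studied as Ikaros targets went from 9 called to 5 without LME-sEV library 2. The same libraries set the count over all genes, 1131, which was 391 without LME-sEV library 2, 458 without LME-sEV library 3, and 723 without HCME-sEV library 2. The cause was not tested. The replicate block gave 1454 called genes, a log2 fold change of 1.05 for Ikzf2, and 2 called genes of the NuRD complex. Deviations of libraries with the same number correlated at 0.072, 0.155, and 0.027, and 2 of the 3 LME-sEV libraries correlated best with another number, so the numbers were not taken to pair the libraries. The 3 LME-sEV libraries limit what can be shown for members whose difference is small.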

Other observations

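The spread of Ikzf2 among HCME-sEV libraries was wider than that of the other members. The highest HCME-sEV library exceeded the lowest 1.79-fold for Ikzf2, against 1.197-fold for Ikzf1, 1.15-fold for Ikzf3, 1.11-fold for Ikzf4, and 1.25-fold for Ikzf5. Among LME-sEV libraries the same ratios were 1.11 for Ikzf2 and 1.03 to 1.18 for the other members. Nrp1, another gene shared by regulatory and activated T cells, was at 10.9 to 19.2 CPM after HCME-sEVs and 15.9 to 21.3 CPM after LME-sEVs, with overlapping groups.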
